A study of Mus musculus with 2 samples.

Results

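The TGF-β, BMP and activin genes of the mouse anterior eye segment were examined as a set of 39, taken by symbol from the gene rows of both libraries. All 39 symbols were found among the 32285 genes counted. The set holds 3 TGF-β ligands (Tgfb1 to Tgfb3), 5 BMP ligands (Bmp2, Bmp4, Bmp5, Bmp6, Bmp7), the activin subunits Inhba and Inhbb, the related ligands Gdf10 and Gdf15, and 12 receptors and co-receptors. It also holds the secreted antagonists Fst, Fstl1, Fstl3, Grem1, Nog, Chrd and Chrdl1, the latent TGF-β binding proteins Ltbp1 and Ltbp3, the intracellular inhibitors Smad6, Smad7 and Skil, and the response genes Id1, Id2 and Id3.

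Ligands of this family bind paired type I and type II serine/threonine kinase receptors, which phosphorylate SMAD proteins that enter the nucleus. TGF-βs and activins act mainly through Smad2 and Smad3, and BMPs through Smad1, Smad5 and Smad9, for which the Id genes are standard targets. In the trabecular meshwork (TM), the sieve of extracellular matrix and cells through which aqueous humor leaves the eye toward Schlemm's canal (SC), TGF-β2 is known for promoting matrix deposition, and BMPs and their antagonists for modulating that response.

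The tissue was anterior eye segment with the iris taken away, dissociated to single cells and profiled with 10x Genomics 3′ droplet sequencing of single cells, with 1 library of pooled eyes per condition. Control mice, of mixed strain like the others, carried floxed Foxc2 alleles without Cre (Foxc2 fl/fl), and NC-Foxc2-/- mice carried the same alleles with Wnt1-Cre, which is active in the neural crest, the embryonic source of much of the corneal stroma and meshwork, so that the presence of Cre and the loss of Foxc2 cannot be told apart. Every pool held 4 to 6 mice, whose labelled age is 4 weeks (3 to 4 weeks in the protocol). The NC-Foxc2-/- mice were of a moderate ocular phenotype, that is, with opaque eyes, per the study's text. After filtering, 10773 control cells with a median of 7663 unique molecular identifiers (UMIs, 119599692 in all) and 10872 NC-Foxc2-/- cells with a median of 6517 (94644512 in all) were kept, and 52 barcodes that both libraries share were told apart by library. Since each condition is 1 library, no test between conditions exists. Levels are a gene's UMIs scaled to 1000000 UMIs of its class (CPM), a ratio is the NC-Foxc2-/- level over the control level, and its 95% interval covers counting error only, not the spread between mice.

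Cells were grouped into the study's own clusters of TM (TM-1 to TM-3), uveal meshwork, fibroblast and endothelial cells (ECs), and into classes rebuilt by clustering and named "-like" from markers, 20 named classes in all, with 123523 to 38006589 UMIs per class and library. Another 699 control cells (6.49%) and 1380 NC-Foxc2-/- cells (12.7%) took no name. They were left out of the rankings of classes and the comparisons below. Markers of the study's classes were placed as their names say: over both libraries Myoc was at 1238 CPM in TM-3 against 174 in TM-1 and 40.8 in TM-2, Edn3 was at 852 in TM-1 and 743 in TM-2, Lypd1 at 241 in the uveal meshwork, and Pi16 at 2055 in fibroblasts. Foxc2 itself was at 13.1 CPM in the control and 6.58 CPM in the NC-Foxc2-/- library. It was lower in the latter in TM-1 (ratio 0.222), TM-2 (0.218), TM-3 (0.189), the uveal meshwork (0.190) and fibroblasts (0.0144). The same held in pericyte-like (0.0186) and smooth muscle-like cells (0.183). ECs had few Foxc2 UMIs, 20 and 5 in blood ECs (0.245, 0.0718 to 0.672) and 36 and 3 in SC and lymphatic ECs (0.377, 0.0743 to 1.19). In keratocyte-like cells, the cells of the corneal stroma, Foxc2 went the other way, from 4.17 to 9.97 CPM (ratio 2.39, 95% interval 1.93 to 2.98), against the label of that library. The sources used here do not say what part of Foxc2 the deletion removes. For values in keratocyte-like cells, the NC-Foxc2-/- library is therefore only the library so labelled.

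RefSeq promoter stretches (build GRCm38.p6, read 5′ to 3′ on the gene's strand, 250 bases before to 30 after the start) are shown for the 4 members on which the response pattern below turns: the feedback inhibitor Smad6, the response genes Id2 and Id3, and the ligand Gdf10. Capitals mark motifs known for SMAD binding, searched on both strands: the palindrome GTCTAGAC, its shorter relative CAGAC, which reads as GTCTG on the opposite strand, and the palindrome GGCGCC. No motif lies inside another. The Smad6 stretch (chr9:64022030-64022309, minus strand) holds GTCTAGAC at bases 247 to 254, across the start, Id2 (chr12:25096063-25096342, minus strand) holds GGCGCC at bases 20 to 25, Id3 (chr4:136143572-136143851, plus strand) holds CAGAC at bases 84 to 88 and its reverse complement at 183 to 187, and Gdf10 (chr14:33923337-33923616, plus strand) holds CAGAC at bases 153 to 157 and GGCGCC at 267 to 272.
Smad6: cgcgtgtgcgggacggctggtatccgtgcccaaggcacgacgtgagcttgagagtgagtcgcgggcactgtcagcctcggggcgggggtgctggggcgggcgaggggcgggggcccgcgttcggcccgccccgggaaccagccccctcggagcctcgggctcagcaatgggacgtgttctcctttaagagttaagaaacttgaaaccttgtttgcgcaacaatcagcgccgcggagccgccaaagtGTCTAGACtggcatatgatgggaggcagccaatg
Id2: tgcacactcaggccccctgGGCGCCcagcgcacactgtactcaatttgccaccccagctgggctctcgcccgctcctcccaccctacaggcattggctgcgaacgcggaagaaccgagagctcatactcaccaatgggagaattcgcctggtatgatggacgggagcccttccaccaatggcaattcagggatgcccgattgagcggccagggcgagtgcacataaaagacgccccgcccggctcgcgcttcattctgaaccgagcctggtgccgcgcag
Id3: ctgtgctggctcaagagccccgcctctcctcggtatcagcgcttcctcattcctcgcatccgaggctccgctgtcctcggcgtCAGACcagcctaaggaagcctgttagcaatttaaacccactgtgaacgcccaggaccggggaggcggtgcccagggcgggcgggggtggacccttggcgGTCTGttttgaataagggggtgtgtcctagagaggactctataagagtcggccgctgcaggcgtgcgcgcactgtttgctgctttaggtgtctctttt
Gdf10: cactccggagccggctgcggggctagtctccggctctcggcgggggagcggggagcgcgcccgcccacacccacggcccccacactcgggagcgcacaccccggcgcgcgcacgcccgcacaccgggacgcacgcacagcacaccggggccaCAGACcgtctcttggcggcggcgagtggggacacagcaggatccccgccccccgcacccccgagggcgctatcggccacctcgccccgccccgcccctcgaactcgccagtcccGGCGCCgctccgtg

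Promoter windows of 300 bases were found for 28 of the 39 members, 33 windows in all. GTCTAGAC stood in 1 of the 33 (3.03%), that of Smad6, against 0.213% of the 32851 mouse promoter windows searched. GGCGCC stood in 8 (24.2%, against 11.9%) and CAGAC, in either orientation, in 20 (60.6%, against 49.6%). These matches describe letters in a window and not binding.

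The ligands were highest in different classes. For 26 of the 39 members, the control and the NC-Foxc2-/- library taken alone gave the same highest class. Tgfb2 was highest in TM-3, at 405 CPM in control and 354 in NC-Foxc2-/- mice, and over both libraries 1.78-fold above the uveal meshwork, the next class (95% interval 1.69 to 1.87). Tgfb3 was also highest in TM-3 (144 CPM over both libraries), ahead of pericyte-like cells at 114. Tgfb1 was highest in blood ECs at 413 CPM. Bmp4 was highest in SC and lymphatic ECs, at 133 CPM in control and 210 in NC-Foxc2-/- mice, and over both libraries 2.25-fold above TM-1, the next class. Bmp6 had its highest level over both libraries in blood ECs (28.0 CPM), and Bmp7 in melanocyte-like cells (39.8 CPM). Bmp2 was spread more evenly, and smooth muscle-like cells (96.1 CPM) and the uveal meshwork (90.7 CPM) did not differ beyond counting error (ratio 1.06, interval 0.950 to 1.18). In the 70 cells of rebuilt cluster 7 that took no name, Bmp2 was at 113.5 CPM on 41 UMIs. Gdf10 was highest in TM-1 in both libraries.

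Receptors, antagonists and response genes had highest classes of their own. The endothelial receptors Acvrl1 and Eng, which bind BMP9-type ligands and TGF-β in vessels, were highest in blood ECs, at 311 and 1024 CPM over both libraries, and next in SC and lymphatic ECs (3.13-fold and 2.99-fold lower). Inhbb, the activin βB subunit, was likewise highest in blood ECs over both libraries (364 CPM), and so was Smad6, which blocks BMP receptor signaling (153 CPM, 6.95-fold above TM-2). Tgfbr2, the type II receptor for TGF-β, was highest in fibroblasts (375 CPM), as was Fstl1, a secreted follistatin-like glycoprotein (2331 CPM against 996 in keratocyte-like cells). Of the named classes, Fst, which binds and neutralizes activin, was highest in corneal endothelial-like cells (627 CPM) and next in the uveal meshwork (358 CPM), although only 9 cells of that first class were NC-Foxc2-/-. The 70 unnamed cells of rebuilt cluster 7 had Fst at 675.5 CPM on 244 UMIs. Nog, a BMP antagonist, did not differ beyond counting error between corneal endothelial-like (175 CPM) and smooth muscle-like cells (169 CPM). Skil, a repressor of SMAD transcription, was highest over both libraries in the uveal meshwork (661 CPM), but in NC-Foxc2-/- mice taken alone in TM-2 (566 CPM). Id3 was highest in pericyte-like cells (6745 CPM) and Id2 in macrophage-like cells (794 CPM), the last 2.09-fold above NK/T/B cell-like cells. Vascular and mural classes also led for Bmpr2 (blood ECs, 475 CPM), Bmpr1a (smooth muscle-like, 143 CPM), Smad7 (pericyte-like, 733 CPM, and blood ECs, 699 CPM, ratio 1.05, interval 0.990 to 1.11), Id1 (smooth muscle-like, 409 CPM) and Ltbp1 (smooth muscle-like, 389 CPM).

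The remaining members were led by other classes or by none clearly. Tgfbr3 and Chrd were highest in fibroblasts (111 and 18.6 CPM, Chrd not beyond counting error from keratocyte-like cells), Fstl3 in Schwann cell-like cells (155 CPM), Gdf15 over both libraries in macrophage-like cells (207 CPM, with pericyte-like cells first in control, at 160.3 CPM) and Ltbp3 in corneal endothelial-like cells (580 CPM). Inhba, Chrdl1 and Grem1 were highest in melanocyte-like cells over both libraries (210, 26.7 and 56.8 CPM). For Tgfbr1 the first and next class, smooth muscle-like and uveal meshwork, differed by 1.07-fold (0.955 to 1.204), for Acvr1, keratocyte-like and SC and lymphatic ECs, by 1.03-fold (0.822 to 1.31), and for Bmpr1b, TM-2 and TM-1, by 1.02-fold (0.685 to 1.48), none beyond counting error. The activin receptors Acvr1b, Acvr2a and Acvr2b were highest in retinal-like cells, at 23.8, 22.4 and 39.2 CPM, the first 2 not separated from the next class. Bmp5 was highest in pericyte-like cells, at 6.32 CPM. Bmp5, Acvr2b and Grem1 were sparse, with under 50 UMIs over both libraries in each of the 6 classes taken up next.

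**Figure D1:**
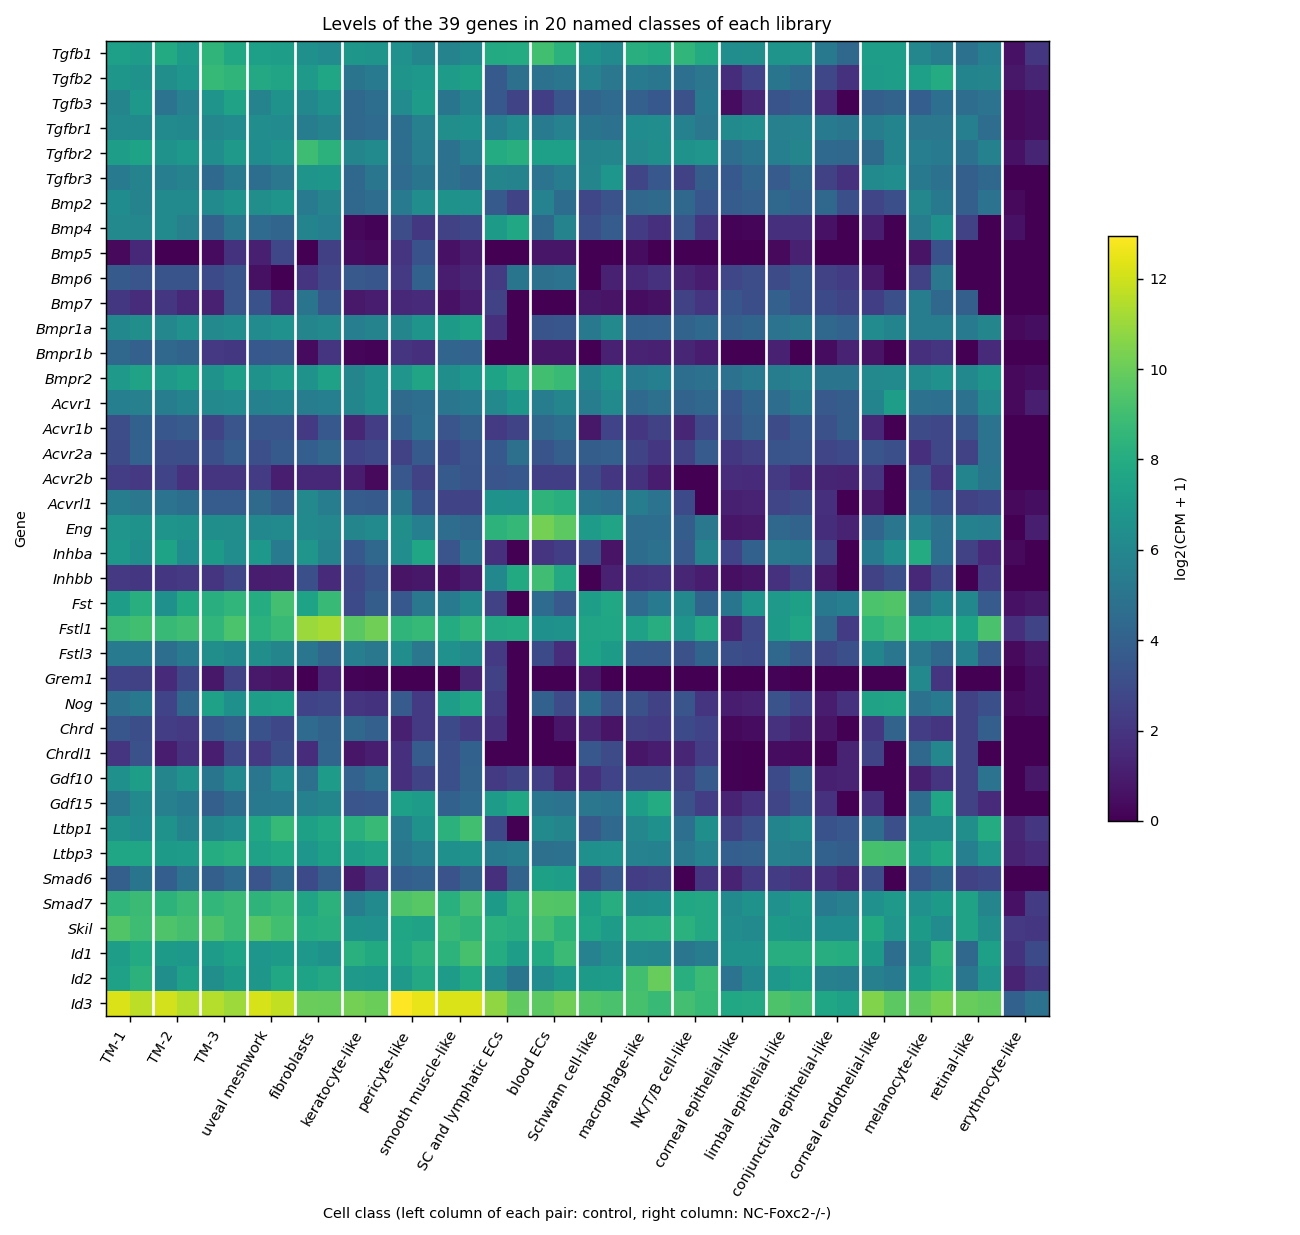
Levels of the 39 members by class and library. Rows are genes in order of role, columns are the 20 named classes in pairs (control, then NC-Foxc2-/-), and color is log2(CPM + 1) of UMIs summed per class and library. Eng, Acvrl1 and Smad6 peak in blood ECs, Tgfb2 in TM-3 and Id3 in pericyte-like cells, in both libraries.

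To ask which members differed between conditions in the meshwork and stroma, a member was called higher or lower where its ratio reached 2 or fell to 0.5 with at least 50 UMIs over both libraries. That limit sorts ratios by size and tests nothing. In TM-1, 4 of 33 members with enough UMIs were called, all higher, where 3.94% of all genes were past the limit and 2.24% higher. In TM-2 it was 2 of 26 (all genes 4.65%), in TM-3 4 of 35, all higher (all genes 5.93%, higher 3.64%), and in the uveal meshwork 4 of 33 (all genes 3.54%), 2 in each direction. In fibroblasts 6 of 33 were called, 5 of them higher (all genes 10.9%, higher 4.84%), and in keratocyte-like cells 3 of 34, all higher (all genes 3.59%, higher 2.27%), the class whose Foxc2 level went against the label. The median log2 ratio of the members with enough UMIs was 0.49 in TM-3, 0.24 in fibroblasts and 0.29 in keratocyte-like cells, beside 0.06, -0.02 and 0.00 over all genes so counted, and it was 0.05 to 0.13 in TM-1, TM-2 and the uveal meshwork. With ratios divided by the median gene ratio, TM-3 had 3 higher and 1 lower in place of 4 higher, since Gdf10 came to 1.95 and Nog to 0.497. Members called in more than 1 of these 6 classes were Fst, Gdf10, Chrdl1, Acvr1b and Smad6, always higher, Inhba, always lower, and Bmp7, in both directions.

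**Figure D2:**
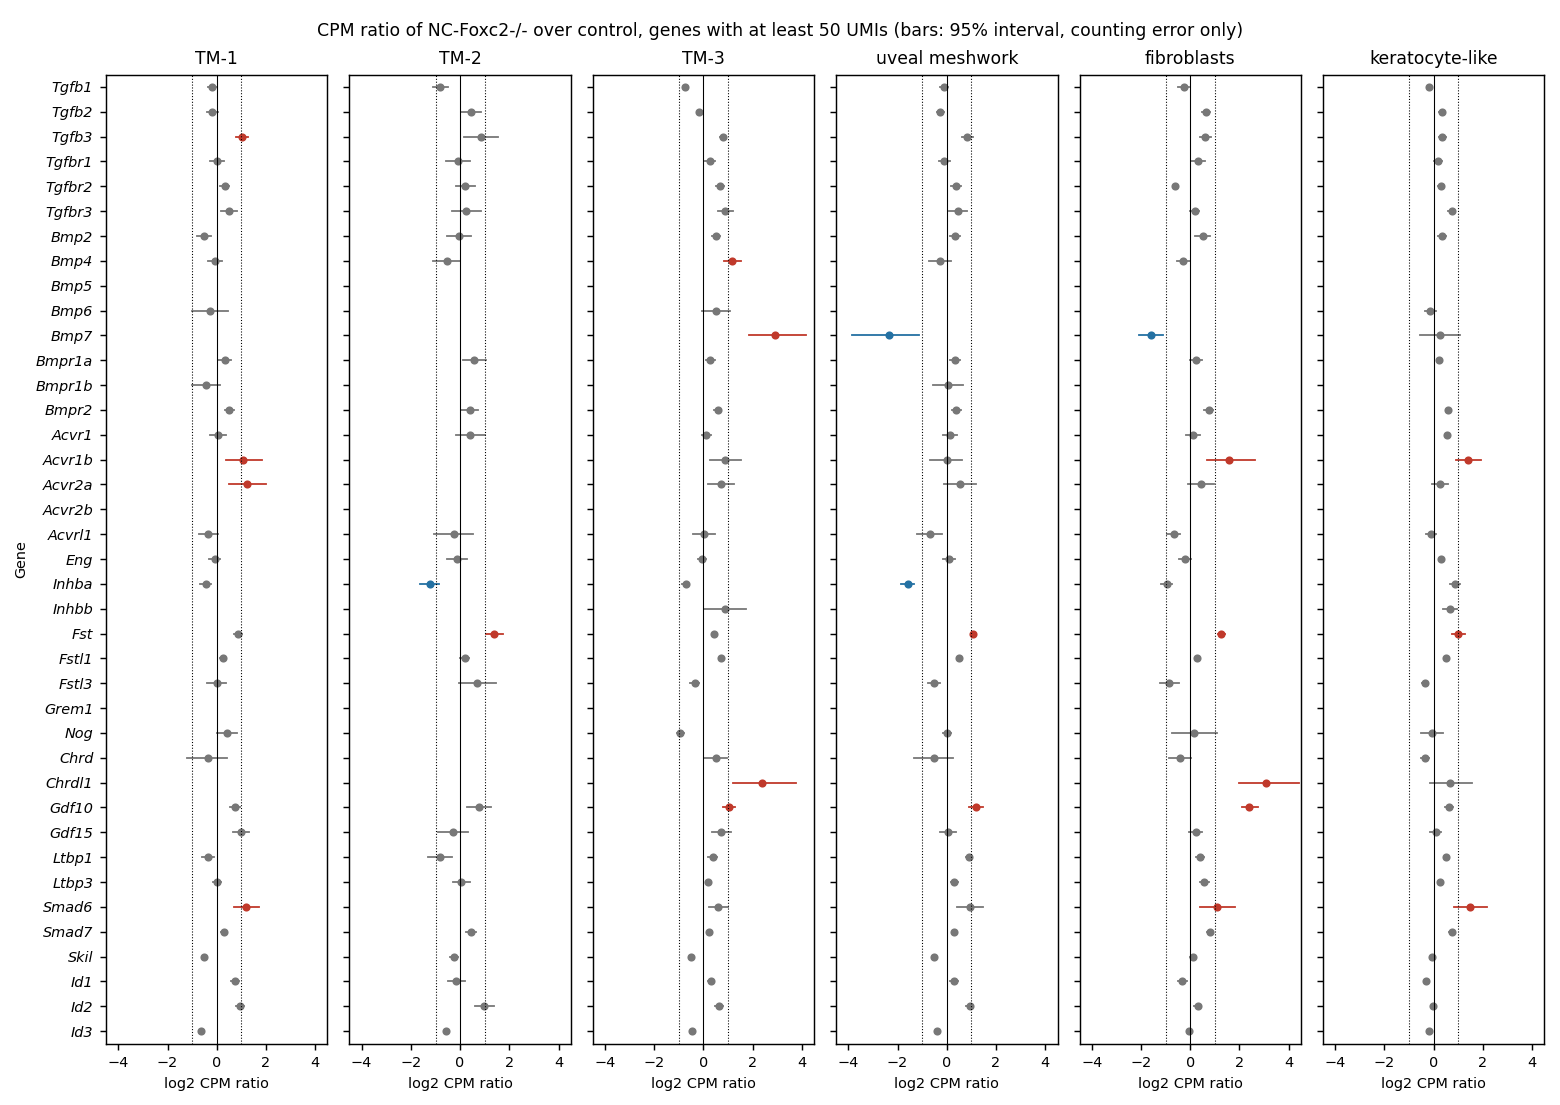
Log2 ratio of CPM, NC-Foxc2-/- over control, for members with at least 50 UMIs in each of 6 classes. Points are ratios, bars the exact 95% interval for counting error, red marks ratios of at least 2, blue ratios of at most 0.5 and grey those between. Most points lie within 2-fold, and Gdf10 and Chrdl1 in fibroblasts and Bmp7 in TM-3 stand farthest to the higher side.

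Among TGF-β ligands, Tgfb3 was higher in all 6 classes and Tgfb1 lower in all 6, mostly by less than 2-fold. Tgfb3 went from 59.2 to 120 CPM in TM-1 cells (ratio 2.03, interval 1.71 to 2.42), and from 103 to 178 CPM in TM-3 (1.73, 1.57 to 1.91). In TM-2, the uveal meshwork, fibroblasts and keratocyte-like cells its ratio was 1.78, 1.79, 1.52 and 1.28. With classes rebuilt by clustering the TM-1 ratio was 1.95, just short of the limit. That rebuilt class also held TM-2 and uveal meshwork cells, and its TM-1 cells alone had a ratio of 2.13. Tgfb1 went from 360 to 213 CPM in TM-3 (0.592, 0.555 to 0.632) and from 242 to 138 CPM in TM-2 (0.573, 0.466 to 0.703). In TM-1 and the uveal meshwork the Tgfb1 interval reached 1. Tgfb2 was at 405 and 354 CPM in TM-3 as a whole (0.876, 0.829 to 0.925), though within the main rebuilt clusters of that class, numbered 3 and 7 and described below, its ratio was 0.949 (0.894 to 1.01) and 1.34 (1.10 to 1.64). It was at 226 and 189 CPM in the uveal meshwork, but at 128 and 198 CPM in fibroblasts (1.54, 1.38 to 1.73).

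BMP ligands differed in opposite directions between classes. Bmp4 (chr14:46383520-46390669, minus strand, GRCm38) was at 14.5 CPM in TM-3 cells of control and 32.8 CPM in those of NC-Foxc2-/- mice (2.25, 1.76 to 2.90). Its level in the other meshwork classes was 66.7 and 63.5 CPM (TM-1), 70.2 and 48.1 CPM (TM-2) and 21.8 and 17.95 CPM (uveal meshwork), so none of them shared the higher value. Bmp7 (chr2:172868012-172940321, minus strand) was higher in TM-3, with 8 UMIs in control and 71 in NC-Foxc2-/- cells (ratio 7.46, 3.59 to 17.9). In fibroblasts Bmp7 was lower, at 30.1 and 10.1 CPM (0.334, 0.238 to 0.465), and in the uveal meshwork it was lower on 52 and 6 UMIs (0.198, 0.0696 to 0.461), too few in the rebuilt class for the rule. Bmp5 was read on 0 UMIs in control and 27 in NC-Foxc2-/- fibroblasts, under the minimum of 50 UMIs. Its ratio is 5.01 when 3 counts stand for the 0 in the control library. In fibroblasts of rebuilt cluster 5 alone it was read on 0 and 13 UMIs (interval from 2.03). Bmp2, often paired with Bmp4 in development, was at 71.7 and 101 CPM in TM-3 (1.41, 1.25 to 1.59) and at 78.1 and 54.3 CPM in TM-1 (0.696, 0.569 to 0.849). Bmp6 had under 50 UMIs in 3 of the 6 classes and was within 2-fold in the others.

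The activin subunit Inhba and its antagonist Fst lay on opposite sides in the meshwork. Inhba (chr13:16011851-16031621, plus strand) forms activin A. It was at 180 CPM in TM-2 cells of control and 76.5 CPM in those of NC-Foxc2-/- mice (0.426, 0.326 to 0.553), and at 118 and 39.1 CPM in the uveal meshwork (0.332, 0.274 to 0.399). In TM-1, TM-3 and fibroblasts Inhba was also lower (ratios 0.733, 0.605 and 0.514), whereas in keratocyte-like cells it was at 10.7 and 19.5 CPM (1.82). Fst (chr13:114452290-114458951, minus strand) was higher in all 6 classes. It was at 88.8 and 233 CPM in TM-2 (2.62, 2.05 to 3.38), 255 and 534 CPM in the uveal meshwork (2.10, 1.96 to 2.25, and 1.93 in the rebuilt class), 181 and 435 CPM in fibroblasts (2.40, 2.20 to 2.63) and 6.51 and 13.1 CPM in keratocyte-like cells (2.01, 1.68 to 2.40). In TM-1 it was at 152 and 279 CPM (1.83) and in TM-3 at 275 and 369 CPM (1.34). Inhbb was sparse in all 6 classes, at 9.31 CPM or less.

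Gdf10 (BMP3B), a divergent member of the family, was higher in every one of these classes. Its level was 89.1 CPM in TM-1 cells of control and 148 CPM in those of NC-Foxc2-/- mice (1.66, 1.44 to 1.93), 32.3 and 65.4 CPM in TM-3 (2.03, 1.72 to 2.40), 32.5 and 74.4 CPM in the uveal meshwork (2.29, 1.89 to 2.77) and 26.5 and 141 CPM in fibroblasts (5.302, 4.25 to 6.68). Chrdl1, a chordin-like BMP antagonist, was near 0 in control cells, with 7 UMIs in TM-3 and 7 in fibroblasts, and was read on 43 UMIs in NC-Foxc2-/- TM-3 cells (5.16, 2.30 to 13.6) and 106 in fibroblasts (8.43, 3.95 to 21.5). Nog was lower in TM-3, at 172 and 88.9 CPM (0.517, 0.468 to 0.570), close to the limit of 0.5, and alike in the uveal meshwork at 154 and 156 CPM (1.01, 0.908 to 1.13). Chrd had no ratio past 2-fold in these classes, with a range from 0.694 in the uveal meshwork to 1.41 in TM-3 where it had 50 UMIs. Fstl1 was higher in all 6 by less than 2-fold, and most in TM-3 (373 and 616 CPM, 1.65). Fstl3, which binds activin as Fst does, was at 32.5 and 18.1 CPM in fibroblasts (0.557, 0.422 to 0.734). Gdf15, a stress-induced ligand, was at 35.4 and 69.8 CPM in TM-1 (1.97, 1.57 to 2.48), just inside the limit.

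**Figure D3:**
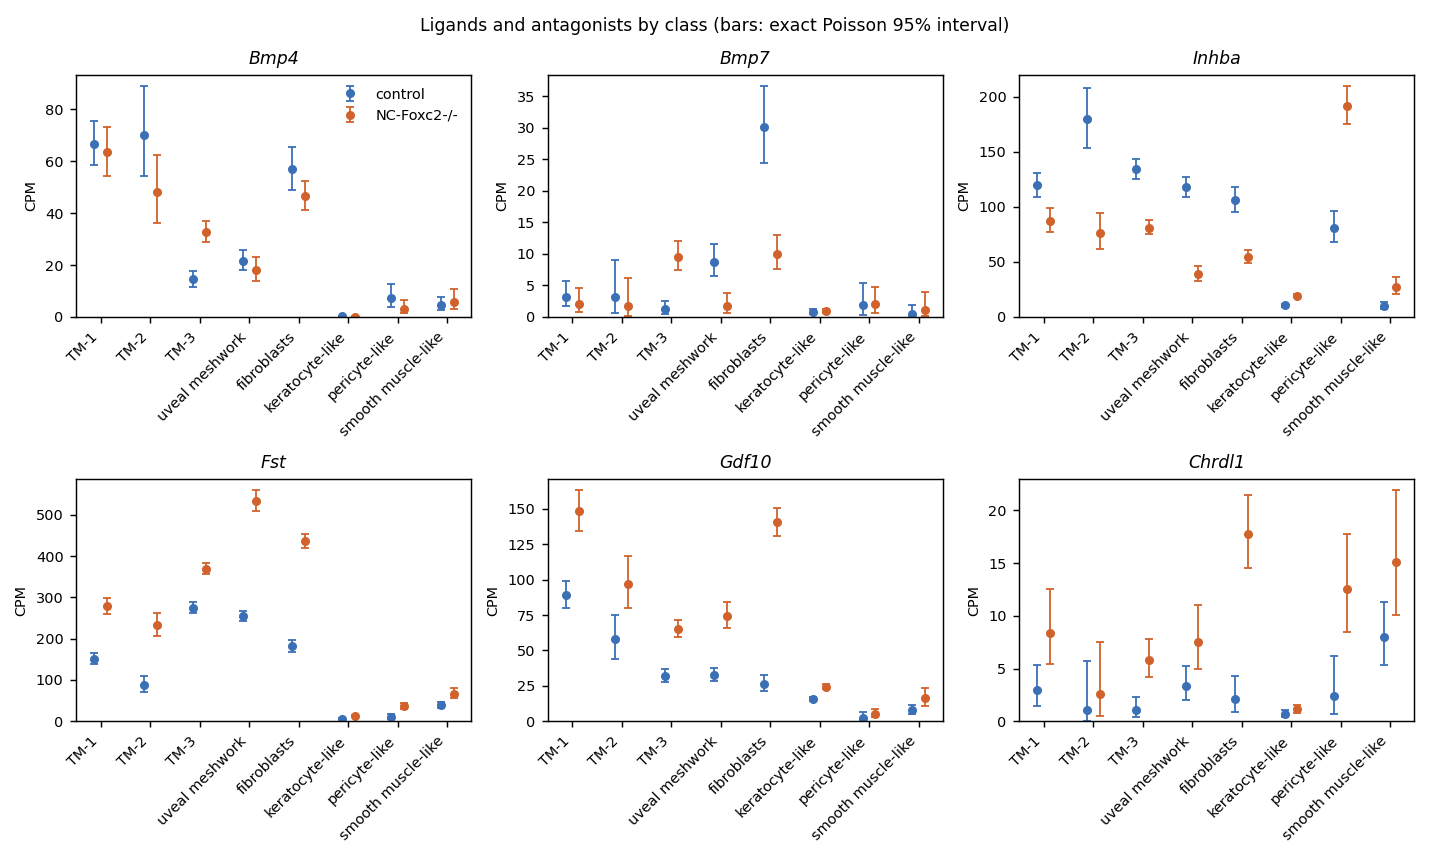
CPM of Bmp4, Bmp7, Inhba, Fst, Gdf10 and Chrdl1 in 8 classes, control in blue and NC-Foxc2-/- in orange, with exact Poisson 95% intervals for counting error. Fst lies higher in the NC-Foxc2-/- library in all 8 classes, Inhba lies lower in the 5 meshwork and fibroblast classes and higher in the other 3, and Bmp7 lies higher in TM-3 and lower in fibroblasts.

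TM-3 and the fibroblasts were each a mix of rebuilt clusters, in unlike shares in the 2 libraries. Rebuilt cluster 3, led by Myoc, Csf3, Ecrg4 and Chil1, took in 79.1% of control and 52.8% of NC-Foxc2-/- TM-3 cells, and cluster 7, led by Igfbp6, Sfrp2, Sfrp4 and Cilp2, held 17.4% and 42.5%. The summed level of the 5 fibroblast markers in TM-3, all read, was 376 and 551 CPM (ratio 1.46). The 4 corneal endothelial markers there, all read, were at 744 and 424 CPM in sum (0.57). Within cluster 3 no member of 31 with enough UMIs was past the limit: Bmp4 was at 10.4 and 11.1 CPM (1.07), Bmp7 was read on 2 UMIs in each library, and Gdf10 was at 32.4 and 63.9 CPM (1.97). Within cluster 7, 5 of 31 were past the limit, 4 higher and 1 lower. The share of all genes past the limit was not computed within clusters. In cluster 7, Bmp4 was at 42.2 and 74.0 CPM (1.75), Bmp7 at 7.68 and 27.9 CPM (3.64, 1.59 to 10.3) and Gdf10 at a ratio of 1.95. There Inhba was at 198 and 39.6 CPM (0.200) and Bmp2 at 12.8 and 127 CPM (9.89, 5.31 to 20.8). Smad6 had a ratio of 2.91 in cluster 7, and Nog, lower in TM-3 as a whole, had 3.22. Tgfb3 was at 1.85 in cluster 3 and 1.34 in cluster 7. The part of the cluster shares and of these marker shifts in the ratios of the whole class, that of Nog included, was not tested.

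In fibroblasts, cluster 5 accounted for 91.5% of control cells and 74.5% of those from NC-Foxc2-/- mice. Within it Gdf10 (5.45), Chrdl1 (8.88), Fst (2.67), Acvr1b (3.11) and Bmp7 (0.252) were past the limit as in the whole class, and Smad6 was at 1.73. The summed fibroblast markers were at 10610 and 6844 CPM in the class (0.645) and the 3 uveal meshwork markers at 331 and 60.8 CPM (0.184), and the part of these shifts in the fibroblast ratios was not tested. In the uveal meshwork the mix was alike, with 65.2% and 64.5% of cells in cluster 6, and Inhba and Fst had ratios of 0.275 and 1.96 there and 0.395 and 2.20 in cluster 1. Bmp7 of the uveal meshwork came mostly from cluster 1 (44 and 6 UMIs).

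**Figure D4:**
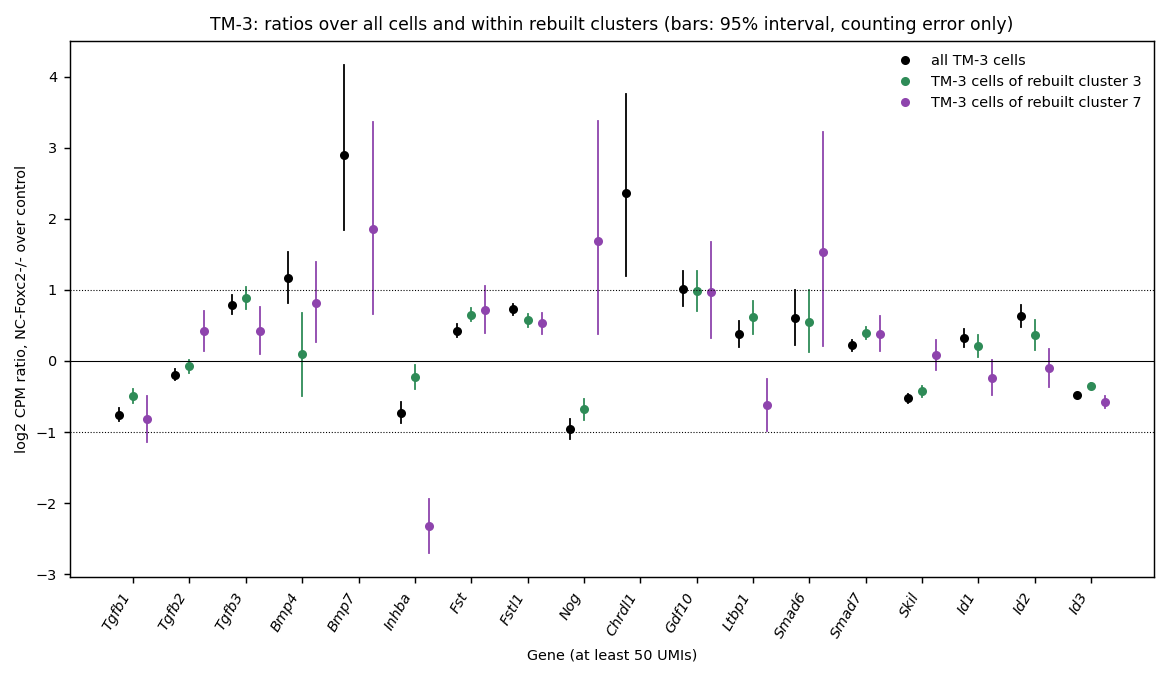
Log2 ratio of CPM, NC-Foxc2-/- over control, for 18 members in TM-3 as a whole, in its cells of rebuilt cluster 3 and in its cells of rebuilt cluster 7, with exact 95% intervals for counting error. Bmp4 is at a ratio of 2.25 in the class, 1.07 in cluster 3 and 1.75 in cluster 7.

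Of the 12 receptors, Acvr1b and Acvr2a alone were past the limit in any of the 6 classes. Bmpr2, the BMP type II receptor, was higher in all 6 classes with ratios from 1.30 in the uveal meshwork to 1.67 in fibroblasts, and Bmpr1a from 1.17 to 1.49. Tgfbr3 (betaglycan), which presents TGF-β2 to its receptors, was also higher in all 6 and at most 1.84 (TM-3). Acvr1b, the activin type I receptor, was at 7.29 and 15.4 CPM in TM-1 (2.12, 1.28 to 3.55), 3.61 and 10.9 CPM in fibroblasts (3.02, 1.62 to 6.14) and 1.60 and 4.18 CPM in keratocyte-like cells (2.62, 1.86 to 3.76), all low levels. Acvr2a was at 6.75 and 15.8 CPM in TM-1 (2.34, 1.40 to 3.98), and in the rebuilt TM-1 class Acvr1b was at 1.88 and Acvr2a at 1.84. Among only the TM-1 cells of that mixed rebuilt class, Acvr1b was at 2.05 and Acvr2a at 2.16. Tgfbr2 was lower in fibroblasts, at 485 and 315 CPM (0.649, 0.607 to 0.694), and higher in TM-3, at 79.7 and 127 CPM (1.59, 1.43 to 1.78). Tgfbr1, Acvr1, Bmpr1b, Acvrl1 and Eng were within 2-fold wherever they had 50 UMIs in these classes. Ltbp1, which tethers latent TGF-β to the matrix, was at 215 and 402 CPM in the uveal meshwork (1.87, 1.73 to 2.02) and at 95.01 and 54.1 CPM in TM-2 (0.570, 0.407 to 0.794), and Ltbp3 lay between 0.998 and 1.48 in the 6 classes.

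The feedback and response genes did not share a direction. Smad6 (chr9:63953076-64022059, minus strand) was higher in TM-1 at 14.0 and 32.3 CPM (2.30, 1.62 to 3.29), in fibroblasts at 6.62 and 13.9 CPM (2.10, 1.30 to 3.53, and 1.77 in the rebuilt class) and in keratocyte-like cells at 0.930 and 2.61 CPM (2.80, 1.79 to 4.54), with 1.52 in TM-3, 1.93 in the uveal meshwork and 2.18 on 47 UMIs in TM-2. Smad7, the inhibitor shared by TGF-β and BMP receptors, was higher in all 6 classes by 1.17-fold (TM-3) to 1.73-fold (fibroblasts). Id2 was at 168 and 324 CPM in TM-1 (1.93, 1.74 to 2.14), with ratios of 1.97 in TM-2, 1.56 in TM-3 and 1.89 in the uveal meshwork. Id3 (chr4:136143497-136145755, plus strand) lay on the other side, at 5011 and 3234 CPM in TM-1 (0.645, 0.629 to 0.662), 4297 and 2889 CPM in TM-2 (0.672), 2941 and 2105 CPM in TM-3 (0.716) and 4542 and 3468 CPM in the uveal meshwork (0.763). Id1 was at 145 and 243 CPM in TM-1 (1.68, 1.497 to 1.88) but at 293 and 233 CPM in keratocyte-like cells (0.796). Skil was lower in TM-1, TM-3 and the uveal meshwork by like ratios (0.702, 0.695 and 0.703) and at 257 and 279 CPM in fibroblasts (1.09). Within TM-3 the Skil ratio was 0.745 in cluster 3 and 1.06 (0.916 to 1.23) in cluster 7, that of Id2 was 1.29 and 0.934 (0.778 to 1.13), and that of Id3 was 0.784 and 0.672.

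Immediate early and heat shock genes, a list of 10 with at least 50 UMIs each, were read in the same classes. Of the meshwork classes, TM-1 and the uveal meshwork had 0 past the limit, Hspa1a and Hspa1b were higher in TM-2 and TM-3, and Atf3 was lower in TM-3. Junb, an immediate early gene, had ratios of 0.692 (TM-1), 0.973 (TM-2), 0.599 (TM-3) and 0.626 (uveal meshwork), and the heat shock gene Hspa1a had 1.90, 3.89, 4.18 and 1.53 in the same order. These are examples. Over the 10 genes, ratios ran from 0.692 to 1.95 in TM-1 and from 0.549 to 3.89 in TM-2. In TM-3 they ran from 0.461 to 4.41, and in the uveal meshwork from 0.502 to 1.53. The part of these genes' shifts in the Id, Skil and Smad6 values was not tested.

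**Figure D5:**
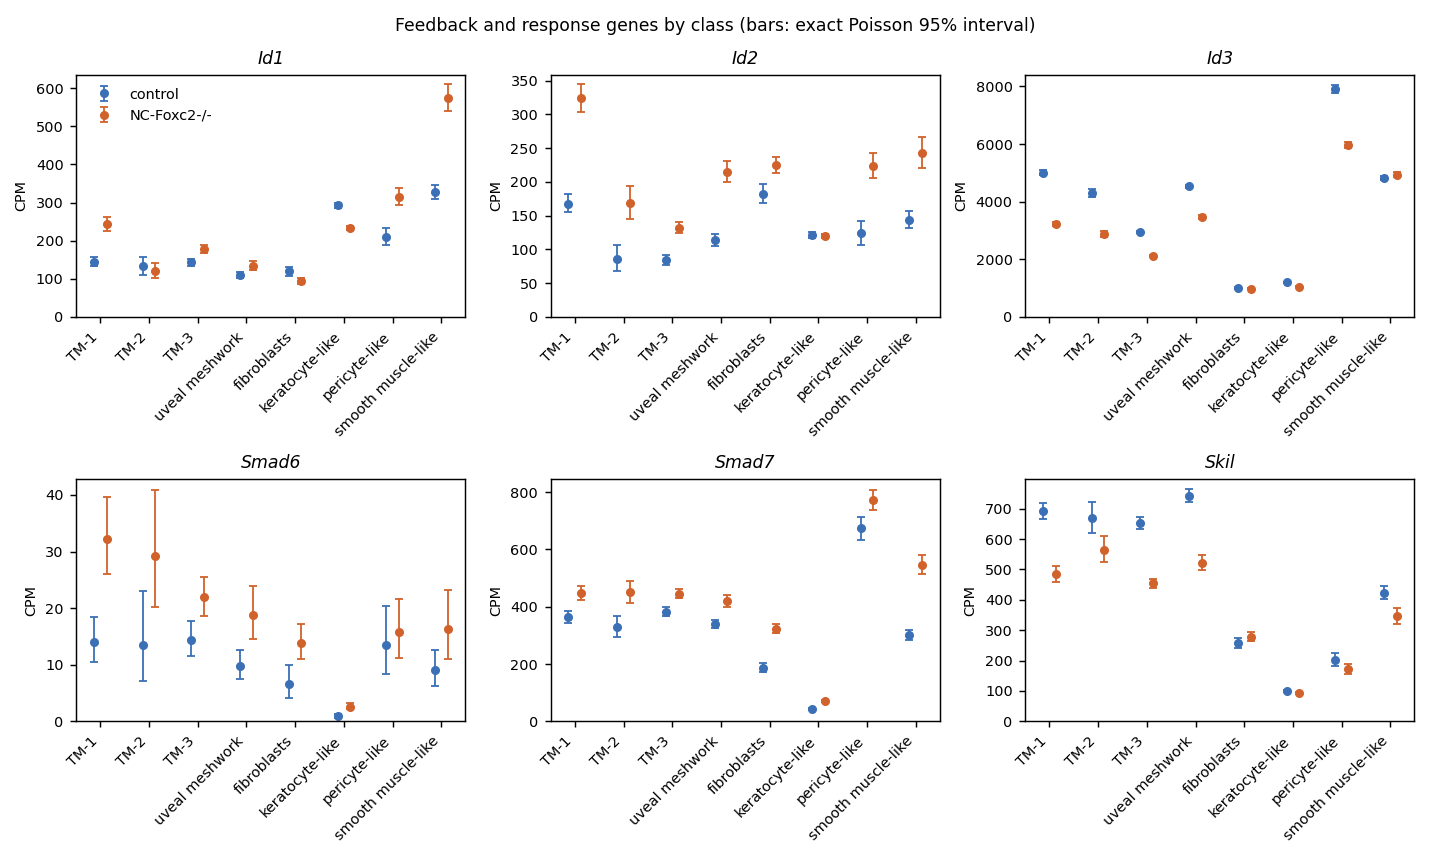
CPM of Id1, Id2, Id3, Smad6, Smad7 and Skil in 8 classes, control in blue and NC-Foxc2-/- in orange, with exact Poisson 95% intervals for counting error. Id2 is higher and Id3 lower in the NC-Foxc2-/- library in TM-1, TM-2, TM-3 and the uveal meshwork, for example 168 and 324 CPM against 5011 and 3234 CPM in TM-1.

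Of the 25 members with at least 50 UMIs in all 6 classes, 9 had a ratio above 1 in every class (Tgfb3, Tgfbr3, Bmpr1a, Bmpr2, Acvr1, Fst, Fstl1, Gdf10 and Smad7), 2 had a ratio below 1 in every class (Tgfb1 and Id3), and 14 went both ways. Of the 4668 genes with as many UMIs in all 6 classes, 20.4% had a ratio above 1 in every class and 15.1% below 1, beside 36.0% and 8.0% of the members. All 6 classes come from the same pair of libraries, so these counts are not repeated observations.

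Other genes of the pathway, a list of 51, all found, held the receptor SMADs, further antagonists and TGF-β targets. Their shares past the limit, 23.1% in fibroblasts, 9.52% in keratocyte-like cells, 7.32% in TM-3, 10.5% in TM-1, 3.23% in TM-2 and 2.5% in the uveal meshwork, stand beside 10.9%, 3.59%, 5.93%, 3.94%, 4.65% and 3.54% of all genes, so that those in TM-2, TM-3 and the uveal meshwork were near the level of all genes. In fibroblasts 9 of 39 with enough UMIs were past the limit, 7 higher and 2 lower. Ccn2 (CTGF), a matricellular TGF-β target, was there at 292 and 1070 CPM (3.67, 3.43 to 3.93) and Bmper, a BMP-binding protein, at 3.31 and 17.8 CPM (5.37). Eln, the gene for elastin, was lower at 2777 and 703 CPM (0.253), as was Nbl1, a BMP antagonist, at 1627 and 614 CPM (0.377). In keratocyte-like cells 4 of 42 were past the limit, all higher, among them Ccn2 (2.06). In TM-3 it was 3 of 41, namely Ltbp4 (2.21), Rgmb, a BMP co-receptor (2.70), and Tgfbi, a TGF-β-induced matrix protein, at 69.0 and 181 CPM (2.62, 2.35 to 2.92). In TM-1 it was 4 of 38, with the antagonist Sostdc1 at 51.3 and 13.7 CPM (0.266) and Tsc22d1, TGF-β1-stimulated clone 22, at 2378 and 1170 CPM (0.492), and Id4 (2.02) and Smad9 higher. Tsc22d1 was also past the limit in TM-2 (0.434), 1 of 31 there, and at 0.527 in TM-3. In the uveal meshwork 1 of 40 was called, Itgb8, which encodes part of an integrin that activates latent TGF-β.

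In mural cells the calls took in ligands, antagonists, receptors and the latent binding protein Ltbp1. In pericyte-like cells 7 of 26 members were past the limit, 5 higher (all genes 9.21%). Inhba was at 81.1 and 192 CPM (2.37, 1.95 to 2.90), Bmp2 at 39.6 and 80.1 CPM (2.02, 1.52 to 2.72), Ltbp1 at 39.6 and 96.3 CPM (2.43) and Fst at 10.97 and 35.99 CPM (3.28), with Tgfbr1 at 2.04. Acvrl1 was lower there, at 31.7 and 8.49 CPM (0.268, 0.153 to 0.453), and Fstl3 at 81.7 and 34.0 CPM (0.416). The summed level of 7 endothelial markers in pericyte-like cells, all read, was 282 and 94.2 CPM (0.334) and that of 5 fibroblast markers, all read, was 106 and 252 CPM (2.38), and the part of either in these ratios was not tested. In smooth muscle-like cells 2 of 30 were called (all genes 3.36%), Inhba (9.81 and 27.6 CPM, 2.82) and Gdf10 (2.04).

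In endothelium the activin subunit Inhbb went opposite ways. It was at 506 and 225 CPM in blood ECs (0.444, 0.387 to 0.508) and at 64.2 and 231 CPM in SC and lymphatic ECs (3.61, 2.36 to 5.48), a class of 84 control and 23 NC-Foxc2-/- cells. Blood ECs had 3 of 24 members past the limit (all genes 6.87%), and the others were Bmp4, at 18.9 and 55.4 CPM (2.94, 1.86 to 4.77), and Bmp2, at 52.3 and 22.7 CPM (0.435). Eng was at 1219 and 833 CPM in blood ECs (0.683). Blood ECs pool the study's clusters BEC-1 to BEC-6, whose mix in each library was not compared. Their 7 endothelial markers were at 10570 and 8001 CPM in sum (0.757), and 3 SC and lymphatic markers at 226 and 126 CPM (0.557). The part of these shifts in the member ratios of blood ECs was not tested. SC and lymphatic ECs had 3 of 17 (all genes 9.65%), with Smad7 at 134 and 323 CPM (2.40, 1.73 to 3.32) and Id2 on 64 and 6 UMIs (0.425). Id3 was at 1782 and 893 CPM there (0.501, 0.424 to 0.589) and at 831 and 1124 CPM in blood ECs (1.35). In SC and lymphatic ECs the summed endothelial markers were at 6778 and 6036 CPM (0.891), whereas 5 erythrocyte markers went from 12540 to 96.8 CPM, 5 smooth muscle markers from 137 to 16.1 CPM and 5 melanocyte markers, with Tyr at 0, from 216 to 5.38 CPM. The immediate early genes Fos, Jun and Junb were past the limit there, all lower (0.379, 0.379 and 0.411). The part of these shifts in the member ratios of this class was not tested.

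Outside the meshwork, stroma and vessels, corneal epithelial-like cells had 5 of 25 members past the limit, all higher (all genes 3.94%, higher 2.22%). Fst was at 31.6 and 102 CPM (3.23, 2.88 to 3.62), Id2 at 29.6 and 64.6 CPM (2.19), Inhba at 5.13 and 15.2 CPM (2.96), Tgfb2 at 2.24 and 5.11 CPM (2.28) and Fstl1 at 1.42 and 5.77 CPM (4.07). In the same cells 5 fibroblast markers, all read, went from 1.42 to 7.74 CPM in sum (5.46), 7 trabecular meshwork markers from 24.9 to 47.8 CPM (1.92) and the 5 corneal epithelial markers from 20820 to 13390 CPM (0.643), and the part of these in the calls was not tested. The other epithelial classes had other calls. Limbal epithelial-like cells had 1 of 31 members past the limit (all genes 7.98%), Gdf10 (2.22), with Fst at 1.32 and Id2 at 1.31. Conjunctival epithelial-like cells, with 34 NC-Foxc2-/- cells, had 4 of 24 (all genes 18.8%, lower 14.0%), all lower, namely Tgfb2, Bmp2, Inhba and Fstl1, on 0 to 6 NC-Foxc2-/- UMIs each, with Fst at 1.29 (0.895 to 1.81) and Id2 at 0.959 (0.663 to 1.35). Macrophage-like cells had 0 of 24 (all genes 5.52%), although Id2 was at 524 and 994 CPM (1.90, 1.79 to 2.02), and Schwann cell-like cells had 0 of 21 (all genes 3.87%). Melanocyte-like cells, 178 control and 56 NC-Foxc2-/- cells, had 8 of 27 (all genes 18.6%). In NK/T/B cell-like cells 4 of 13 were past the limit (all genes 7.96%), among them Fst, the only one lower, on 42 and 17 UMIs (0.255, 0.136 to 0.457). In sum, 5 smooth muscle markers in these cells went from 839 to 70.5 CPM, 5 erythrocyte markers from 9644 to 217 CPM and 5 corneal epithelial markers from 1058 to 332 CPM, while 5 pericyte markers, with Higd1b at 0, went from 16.2 to 107 CPM, and their part in the ratios was not tested. In melanocyte-like cells Inhba was at 249 and 25.4 CPM (0.102, 0.0465 to 0.196), Grem1 was read on 116 and 1 UMIs, and Gdf15 was at 24.0 and 203 CPM (8.47, 5.69 to 12.7). The class itself was unlike between libraries, with 5 melanocyte markers at 26760 and 5970 CPM in sum (0.223), 7 trabecular meshwork markers at 116 and 706 CPM (6.09), 7 endothelial markers, with Cdh5 at 0, at 61.5 and 466 CPM (7.57) and 5 erythrocyte markers at 859 and 15060 CPM (17.5), and the part of these shifts in the member ratios was not tested.

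Likeness of pattern was described by Pearson correlation of log2(CPM + 1) over 40 class-by-library values, which share libraries and depth. Id3 was most like D10Wsu102e (0.93), Kctd10 (0.922) and Pttg1ip (0.921), Gdf10 most like Pdgfra (0.878), Prrx2 (0.872) and Dnm3os (0.871), Fst most like Tubb2b (0.819), Crabp2 (0.815) and Fat1 (0.798), Inhba most like Medag (0.82), Gas1 (0.816) and Mdk (0.81), and Smad6 most like 2700081O15Rik (0.837), Fzd4 (0.836) and Hecw2 (0.823).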

How the data were processed

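The authors deposited, per library, Cell Ranger 4.0.0 counts of UMIs by gene and barcode (mm10, annotation release not given in the sources used here). Their joint table of both libraries also holds counts. No normalization had been applied to these deposited counts. As in the study, cells with over 8% mitochondrial UMIs were dropped, and the members were summed per class and library. The study's meshwork, fibroblast and EC clusters were recovered by matching the paper's source data to cells by their normalized values, within 0.55 of the last digit. The plan had 0.5, at which 74.2% to 84.7% of the meshwork and fibroblast cells matched, and which was run as an alternative. A further EC cluster of 22 NC-Foxc2-/- cells, with 0 control cells, was not compared. Other classes were rebuilt with scanpy 1.11.5 (15 principal components, 25 neighbors) and leidenalg 0.10.2 at resolution 0.8, with seed 1, and named from markers, by a rule that was revised when first clusters had been seen. Scrublet doublets (3.81% of control and 4.77% of NC-Foxc2-/- cells) were kept within named classes. Rebuilt clusters 23 and 24, with 78.3% and 77.8% called doublets, took no name and so were not compared. Of all unnamed cells 23.1% were called doublets. The doublet clusters that the study removed were not otherwise removed here. In limbal epithelial-like cells 31.8% were called.

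Intervals at 95% are exact Poisson for CPM and exact conditional binomial for ratios, for counting error only. For a ratio, a level of 0 UMIs was set to 3 counts. Members were called past 2-fold with at least 50 UMIs. Described in full are the members past that limit, the highest class of each and the most abundant of each role, and of the other pathway genes the extreme ratios on at least 100 UMIs. Names of the remaining pathway genes called were chosen after their values were seen. The members and gene lists were chosen with earlier results of these data known. Scripts were tested on simulated data. Promoters are those of RefSeq on GRCm38.p6, and gene positions those of GENCODE on GRCm38, the assembly also called mm10. Python 3.11.15 was used with SciPy 1.17.1, NumPy 2.4.6, matplotlib 3.10.9 and pandas 2.3.3.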

Additional observations from a re-analysis of the deposited data

Results flagged for a closer look

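Some members were past the 2-fold limit in opposite directions in different classes of at least 100 cells per library. The differences between classes were not tested, since each condition is 1 library. Fst, the activin antagonist, had ratios of NC-Foxc2-/- over control of 2.62 in TM-2, 2.10 in the uveal meshwork, 2.40 in fibroblasts, 2.01 in keratocyte-like cells, 3.28 in pericyte-like cells and 3.23 in corneal epithelial-like cells, but 0.255 in NK/T/B cell-like cells. Inhba, the activin A subunit, was at 0.426 in TM-2 and 0.332 in the uveal meshwork, but at 2.37 in pericyte-like, 2.82 in smooth muscle-like, 2.96 in corneal epithelial-like and 4.86 in NK/T/B cell-like cells. In NK/T/B cell-like cells the summed markers of other cell types also stood apart between libraries, with ratios of 0.0840 for smooth muscle, 0.0226 for erythrocyte and 6.61 for pericyte markers, against 0.889 for their own, and in corneal epithelial-like cells the fibroblast markers had a ratio of 5.46. Their part in the Fst and Inhba ratios was not tested. Bmp7 was at 7.46 in TM-3, 0.334 in fibroblasts and 0.198 in the uveal meshwork. Bmp2 was at 2.02 in pericyte-like cells and 0.435 in blood ECs.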

How the results depend on the processing

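Ratios were rerun only in the 3 TM classes, the uveal meshwork, fibroblasts and keratocyte-like cells. There no ratio of a called member changed direction under any alternative run. Within rebuilt clusters this covers only members with at least 50 UMIs. Members within 2-fold in the main run are not covered. In TM-3, Nog and Tgfb2 were below 1 over the class but at 3.22 and 1.34 within cluster 7. Calls in the other classes were not rerun. With all classes rebuilt by clustering, the members past 2-fold were 2 in TM-1 and 7 in TM-3, against 4 and 4, and TM-2 has no value since no rebuilt cluster took its name. With at least 20 UMIs they were 4 in TM-2 and 7 in the uveal meshwork, against 2 and 4, and with at least 100 UMIs 2 in TM-1 and 2 in TM-3. With each cell thinned to 1000 UMIs, which left out 418 control and 511 NC-Foxc2-/- cells, they were 2 in TM-1, 4 in TM-2, 3 in fibroblasts and 1 in keratocyte-like cells, against 4, 2, 6 and 3. Within rebuilt cluster 3, an alternative chosen after seeing the data, as were clusters 5 and 7, the count for TM-3 was 0, against 4. Within cluster 7 it was 5. The share of all genes past the limit was not computed for the alternative runs. In rebuilt classes Tgfb3 (1.95), Acvr1b (1.88) and Acvr2a (1.84) in TM-1, Fst in the uveal meshwork (1.93) and Smad6 in fibroblasts (1.77) fell short of 2-fold, and Nog in TM-3 (0.466), Id2 in the uveal meshwork (2.14) and Fstl3 in fibroblasts (0.410) passed. The rebuilt TM-1 class, cluster 1, also took in 187 control and 251 NC-Foxc2-/- TM-2 cells, and 293 and 154 of the uveal meshwork. Among the TM-1 cells of that cluster, Tgfb3, Acvr1b and Acvr2a were at 2.13, 2.05 and 2.16. Fst in keratocyte-like cells was at 1.998 among cells with at most 5% mitochondrial UMIs. Dividing ratios by the median gene ratio put Nog in TM-3 at 0.497 and Gdf10 there at 1.95. Of the ratios of named members, 194 of 194 stayed within their interval without called doublets, 138 of 168 in rebuilt classes, 153 of 160 with the match at 0.5, 103 of 192 with thinned cells, and 15 of 31, 26 of 32 and 9 of 31 within rebuilt clusters 3, 5 and 7. The run without doublets could change little, since called doublets were 0% (TM-2) to 0.602% (TM-3) of the classes rerun. Classes with more, such as limbal epithelial-like cells (31.8%), were not rerun. No paired analysis was possible because each condition is 1 library. Members with under 50 UMIs are limited by depth, and a difference between pools of mice cannot be told from one between genotypes. The study lists Xist as higher and the Y-linked gene Ddx3y as lower in NC-Foxc2-/- TM-1 cells. The sex of the mice in each pool was not compared here.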
